A study of Ptychidio jordani with 7 samples.

Results

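The genes described here are 15 rows of the deposited table that carry the name of a gene of T cell receptor signalling. A list of 10 names was used, chosen with earlier results of these data known. It includes CD3E, CD247, CD28, LCK, ZAP70, gata3, Tcf7, eomes and rag1. The rows were matched to it by name only, out of 26107 genes in all. They come from the ratmouth barbel, Ptychidio jordani, a river fish related to carp and zebrafish, whose RNA was sequenced from 7 tissues beside an assembly of its genome. The tissues were gill, caudal fin, kidney, muscle, heart, liver and spleen, and the labels call each sample normal and give no treatment, age or sex. Each tissue was 1 sample, so differences between tissues could not be set against replicates and no test was made. Values are FPKM, fragments counted on a gene relative to its length and to the mapped fragments in its library, and a fold is on the FPKM + 1 scale.

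T cells recognise antigen through a receptor whose variable chains sit in a complex with the CD3 chains and the CD247 (zeta) chain. When the receptor is engaged, the kinase LCK phosphorylates these chains, and ZAP70 docks on them and passes the signal on to calcium release and gene activation, while CD28 gives a second signal. GATA3, TCF7 (TCF-1) and eomesodermin are transcription factors of T cell development and of helper and cytotoxic cells, and each also works outside the T cell lineage. RAG1 cuts receptor genes for recombination in developing lymphocytes. In bony fish the thymus lies by the gill chamber, gill tissue holds resident lymphocytes, and the kidney is the main blood-forming organ.

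All 10 names were found, with 3 rows named eomes, 2 each named CD247, LCK and gata3, and 1 each of the others. In 11 of the 15 rows the orthology column of the table gave the same gene as the name. The other 4 differed. CD28 (Pjo09865) was assigned to CTLA4, an inhibitory receptor of the same family, and the second GATA3 row (Pjo09409) to GATA2. The eomes row Pjo12552 was assigned to TBR1, and the LCK row Pjo19801 to both BLK, a kinase of the same family, and RP1, a photoreceptor protein. Rows that share a name are uncertain, because reads of very similar copies can be shared out wrongly between them.

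The library labelled spleen did not carry the values of a lymphoid organ and is named by its label throughout. Hepatocyte genes were as high in it as in liver: of the 7 rows of that list, 6 were highest there, and the fibrinogen gene FGB (Pjo00985) was 11947 there and 10019 in liver, against at most 0.42 elsewhere. No T cell receptor signalling row exceeded 0.95 in it or 0.75 in liver. Muscle and kidney held many egg genes, with 50 oocyte rows summing to 78400 in muscle and 44500 in kidney, against 45.7 in gill. The table gives no read totals, so depth is unknown and no counting interval can be set. FPKM are shares of a library. The log2 factors to subtract to bring all libraries to 1 common median were 1.05 in kidney, 0.76 in fin, 0.65 in muscle and 0.63 in gill. They were -0.35 in heart, -1.13 in the library labelled spleen and -1.89 in liver. In bulk tissue, fewer T cells and less RNA per cell cannot be told apart.

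Most T cell receptor signalling rows were highest in gill, followed by fin and then kidney. Of the 15 rows, 11 reached an FPKM of 1 in some tissue. Of these, 8 were highest in gill, 1 in fin, 1 in kidney and 1 in muscle, where 23.2%, 18.4%, 17.0% and 25.6% of the 21151 genes that reached 1 anywhere were highest. The 4 rows that stayed below 1 in every library were the second GATA3 row, the eomes rows Pjo12552 and Pjo15830, and rag1. Of the 11 rows, an FPKM of at least 1 was met by 11 in fin, 9 in gill, 9 in kidney, 4 in muscle and 1 in heart, and in the library labelled spleen and in liver by 0. The same held for 79.5%, 76.6%, 75.7%, 68.6%, 59.8%, 52.0% and 41.7% of all these genes, in that order.

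**Figure D1:**
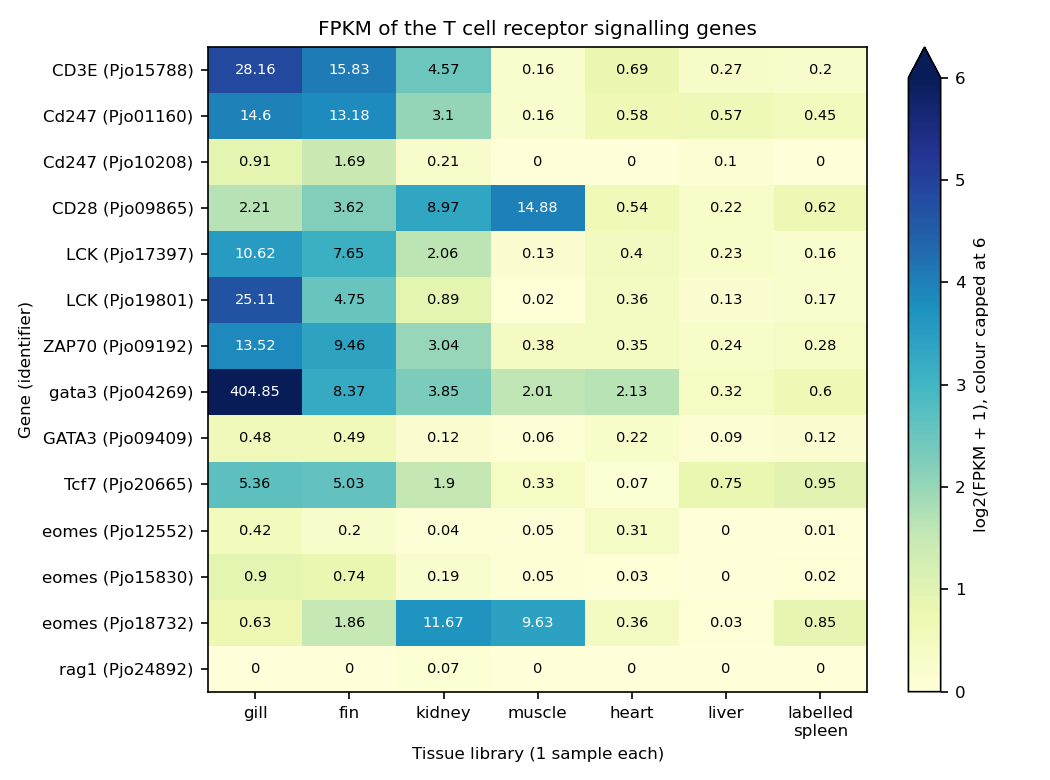
FPKM of 14 of the 15 rows (vertical axis, gene and identifier) in each of the 7 libraries (horizontal axis, 1 sample each); the number in a cell is the FPKM and the colour is log2(FPKM + 1), capped at 6. Receptor, kinase and Tcf7 rows are darkest in gill and fin, gata3 stands out at 405 in gill, and CD28 and the eomes row Pjo18732 are darkest in muscle and kidney.

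The receptor chains had their highest values at the body surface. CD3E (Pjo15788), the epsilon chain of the CD3 complex, was 28.2 in gill, 15.8 in fin, 4.57 in kidney, 0.69 in heart, 0.27 in liver, 0.2 in the library labelled spleen and 0.16 in muscle. Gill and fin were thus high, kidney intermediate and the other 4 libraries below 1. The main Cd247 row (Pjo01160), the zeta chain that carries most of the phosphorylation sites of the complex, was 14.6 in gill, 13.2 in fin, 3.1 in kidney, 0.58 in heart, 0.57 in liver, 0.45 in the library labelled spleen and 0.16 in muscle. Its order over the libraries was the same as that of CD3E. The second Cd247 row (Pjo10208) was 1.69 in fin, 0.91 in gill, 0.21 in kidney, 0.1 in liver and listed at 0 in heart, muscle and the library labelled spleen. It was the only row of the 15 whose highest value was in fin among those that reached 1.

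The kinases were also highest in gill, then fin, then kidney. LCK (Pjo17397), the Src family kinase that starts the cascade, was 10.6 in gill, 7.65 in fin, 2.06 in kidney, 0.4 in heart, 0.23 in liver, 0.16 in the library labelled spleen and 0.13 in muscle. ZAP70 (Pjo09192), the kinase that docks on the phosphorylated chains, was 13.5 in gill, 9.46 in fin, 3.04 in kidney, 0.38 in muscle, 0.35 in heart, 0.28 in the library labelled spleen and 0.24 in liver. As deposited, CD3E, Cd247, LCK and ZAP70 were each between 16.2% and 22.5% of their gill value in kidney. They were at most 3.97% of it in any of the remaining 4 libraries. For liver this gap was smaller after scaling to a common median. Kidney and liver were then 2.21 and 1 for CD3E, 0.99 and 0.86 for LCK, and 1.47 and 0.89 for ZAP70. For Cd247 they were 1.5 and 2.12, with liver above kidney.

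The LCK row Pjo19801, which the orthology column splits between BLK and RP1, was concentrated in gill. Whether this model joins 2 genes was not tested, so its FPKM may not be that of an LCK gene alone. It was 25.1 in gill, 4.75 in fin, 0.89 in kidney, 0.36 in heart, 0.17 in the library labelled spleen, 0.13 in liver and 0.02 in muscle. Gill was 4.54-fold above fin for this row and 1.34-fold above it for the other LCK row. Fin held 18.9% of the gill FPKM in Pjo19801 and 72.0% in Pjo17397.

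gata3 had the steepest profile of the 15 rows. The main row (Pjo04269) was 405 in gill, 8.37 in fin, 3.85 in kidney, 2.13 in heart, 2.01 in muscle, 0.6 in the library labelled spleen and 0.32 in liver. Gill held 95.9% of its summed FPKM over the 7 libraries, against 56.5% for CD3E, and was 43.31-fold above fin. Markers of ionocytes, the ion-transporting cells of the gill, were also concentrated there: 9 of 14 rows were highest in gill, 11 of 14 reached 1 there, and the list summed to 5390 in gill against 22.9 to 694 elsewhere. Their defining transcription factor FOXI1 (Pjo14321) was 99.9 in gill, 0.48 in fin and 0.24 in kidney, and listed at 0 in the other 4 libraries. The part of ionocytes in the gata3 value was not tested. The second GATA3 row, assigned to GATA2, lay between 0.06 and 0.49 in all libraries.

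As deposited, Tcf7 stepped down from gill through fin to kidney like CD3E, but was relatively higher in liver and the library labelled spleen. It was 14.0% and 17.7% of its gill value there, against 0.959% and 0.71% for CD3E. The row (Pjo20665) was 5.36 in gill, 5.03 in fin, 1.9 in kidney, 0.95 in the library labelled spleen, 0.75 in liver, 0.33 in muscle and 0.07 in heart. In liver, and likewise in the library labelled spleen, it was the highest of the 15 rows. After scaling to a common median the gill value was 3.46 and the liver value 2.79. The library labelled spleen was then 2.07 and kidney 0.92.

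CD28 and 1 eomes row did not follow CD3E. The CD28 row (Pjo09865) is named for the costimulatory receptor, but the orthology column assigns it to the inhibitory CTLA4. It was 14.9 in muscle, 8.97 in kidney, 3.62 in fin, 2.21 in gill, 0.54 in heart, 0.62 in the library labelled spleen and 0.22 in liver. Muscle was 4.95-fold above gill and kidney 3.11-fold above gill. The eomes row Pjo18732 was 11.7 in kidney, 9.63 in muscle, 1.86 in fin, 0.63 in gill, 0.36 in heart, 0.85 in the library labelled spleen and 0.03 in liver. Kidney was 7.77-fold above gill, and muscle led after scaling to a common median, with 6.14 against 5.63 in kidney. The other eomes rows were low and had gill as their highest library, at 0.9 for Pjo15830 and 0.42 for Pjo12552. In zebrafish, eomesodermin message is also deposited in the egg.

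The libraries that were high for CD28 and this eomes row were those high in egg genes. Of 50 oocyte marker rows, 46 were highest in muscle and 3 in kidney, and the list summed to 78400 in muscle, 44500 in kidney, 8940 in fin, 2380 in heart, 617 in liver, 45.7 in gill and 4030 in the library labelled spleen. BMP15 (Pjo07570), an oocyte growth factor, was 184 in muscle, 131 in kidney and 1.11 in gill. The ratio of muscle to kidney FPKM was 1.66 for CD28, 0.83 for eomes, and 1.68 as the median of 49 oocyte rows. The ratio of fin to muscle was 0.243 for CD28, 0.193 for eomes and 0.107 for the oocyte rows. CD28 also had 2.21 in gill, where the median oocyte row had an FPKM of 0.47. The part of egg RNA in both rows was not tested.

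The genes of receptor rearrangement were at or near 0 in gill, where depth is unknown. rag1 (Pjo24892) was 0.07 in kidney and listed at 0 in the other 6 libraries. Its partner rag2 (Pjo24891) was 2 in muscle, 1.98 in kidney, 0.38 in fin, 0.13 in heart, 0.07 in the library labelled spleen, 0.06 in gill and listed at 0 in liver. DNTT (Pjo13973), the polymerase that adds bases at receptor joints, was 17.6 in muscle, 10.9 in kidney, 1.48 in fin, 0.29 in heart, 0.91 in the library labelled spleen and 0.08 in liver, and listed at 0 in gill. The ratio of muscle to kidney FPKM was 1.61 for DNTT and 1.01 for rag2, against 1.68 as the median of 49 oocyte rows. The part of egg RNA in the DNTT and rag2 values was not tested. Of 5 thymic epithelium markers, FOXN1 and PSMB11 were listed at 0 in gill, and neither exceeded 0.18 in any library. The other 3, which other cell types also express, were 16.7 (CCL25), 11.1 (DLL4) and 0.44 (Aire) in gill, and 166, 5.42 and 0.41 in fin.

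**Figure D2:**
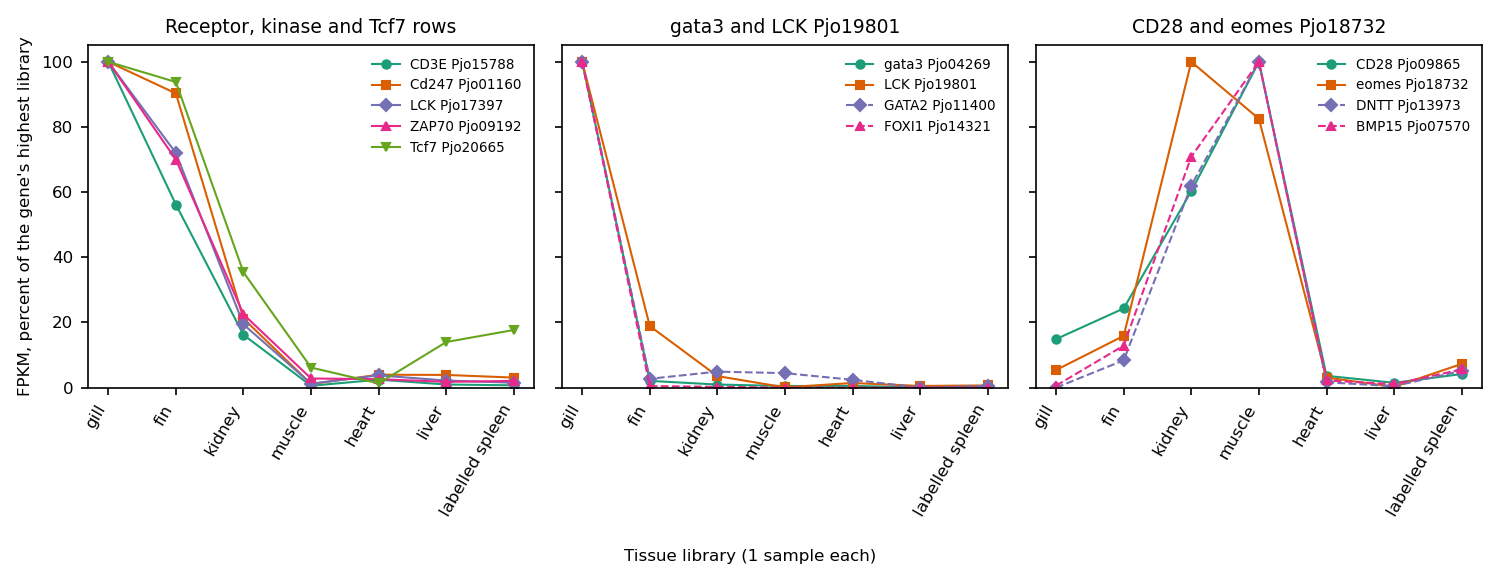
FPKM in each library (horizontal axis, 1 sample each) as a percent of the same gene's highest library (vertical axis), with points joined only to guide the eye; solid lines are T cell receptor signalling rows and dashed lines are GATA2, FOXI1, DNTT and BMP15, picked for display after their values were seen. CD3E, Cd247, LCK, ZAP70 and Tcf7 step down from gill through fin to kidney, gata3 drops to 2.07% of its gill value in fin, and CD28 and eomes peak in muscle or kidney.

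Gill and fin were close for most receptor signalling rows. In the 5 rows of CD3E, Cd247 (Pjo01160), LCK (Pjo17397), ZAP70 and Tcf7, gill was between 1.05-fold and 1.73-fold above fin, with Tcf7 the lowest and CD3E the highest. At least 2-fold higher in gill were gata3 and LCK Pjo19801, 2 of the 11 rows that reached 1, or 18.2%, against 12.4% of all genes that reached 1. None of the 11 was at least 2-fold higher in fin, against 16.6% of genes. The median log2 difference of gill minus fin was 0.14 over the 11 rows and -0.11 over all genes. The same 2 rows were the only ones at least 2-fold above every other library, a rule that 6.88% of genes met. Without the fin library that count was 7. Epidermal cells, which line both surfaces, had marker sums of 29900 in fin and 13500 in gill. In the epidermal sums, 1 krt8 row (Pjo23181) gave 14981 in fin and 196 in gill. Macrophage markers summed to 135 in fin and 231 in gill. The part of either in the T cell values was not tested.

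**Figure D3:**
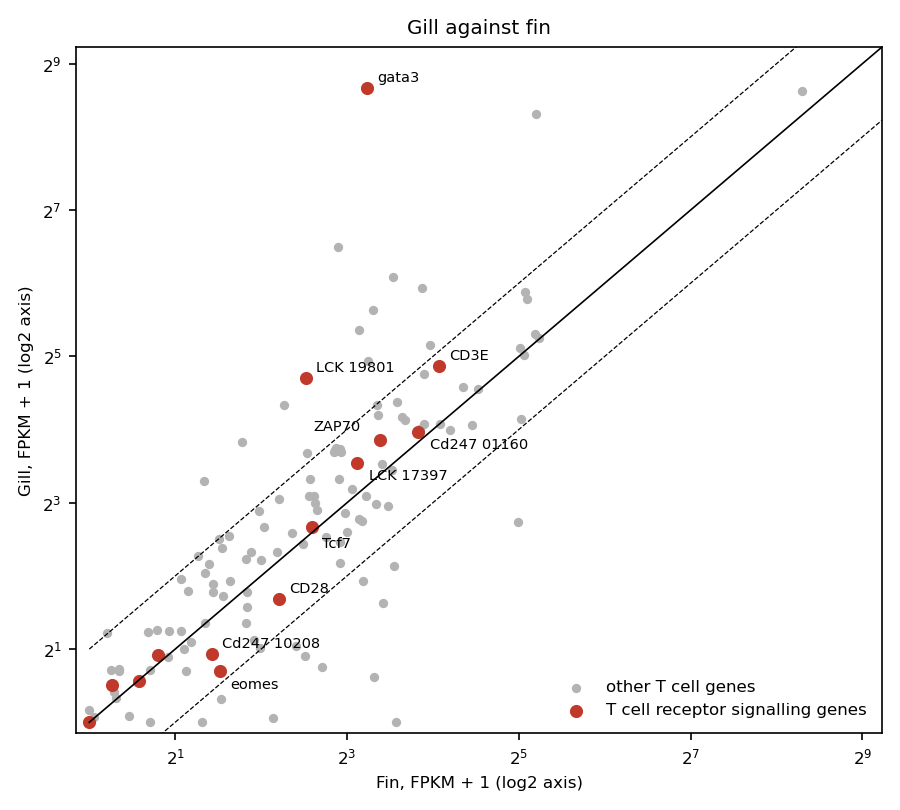
FPKM + 1 in gill (vertical axis) against fin (horizontal axis), both on log2 axes, for 14 of the 15 T cell receptor signalling rows (red, those that reached 1 in gill or fin are named) and the other T cell genes (grey); the solid line marks equal values and the dashed lines 2-fold. gata3 at 405 against 8.37 and LCK Pjo19801 at 25.1 against 4.75 lie above the 2-fold line, and no red point lies below the lower one.

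Gill was above kidney for most rows. At least 2-fold higher in gill were 7 rows, namely CD3E at 5.24-fold, Cd247 Pjo01160 at 3.8-fold, ZAP70 at 3.59-fold, LCK at 3.8-fold and 13.81-fold, Tcf7 at 2.19-fold and gata3 at 83.68-fold. These were 63.6% of the 11 rows that reached 1, against 24.0% of all such genes. CD28 and eomes Pjo18732 were the 2 rows at least 2-fold higher in kidney, where 30.5% of genes were. The median log2 difference of gill minus kidney was 1.85 over the 11 rows and -0.07 over all genes.

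As deposited, kidney was above the library labelled spleen for all 11 rows that reached 1, and for most genes in general. CD3E was 4.64-fold higher in kidney, ZAP70 3.16-fold and LCK Pjo17397 2.64-fold. Of the 11 rows that reached 1, 8 passed the 2-fold rule, or 72.7%, against 57.8% of all genes that reached 1. The median log2 difference was 1.6 over the 11 rows and 1.31 over all genes. After scaling to a common median, 3 rows passed the 2-fold rule. Tcf7 was then lower in kidney, at 0.92 against 2.07 in the library labelled spleen. Liver and the library labelled spleen differed by a median of -0.05 over the 11 rows, with no row beyond -0.84 or 0.14.

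The wider T cell list was also led by gill and fin. It held 101 other genes of T cell signalling, of which 68 were found by name in 116 rows, and 108 of these rows reached 1. Of these 108, 59 were highest in gill, 28 in fin, 11 in kidney, 8 in muscle, 1 in heart, 1 in the library labelled spleen and 0 in liver. Over all genes that reached 1, gill led for 23.2%, fin for 18.4%, kidney for 17.0% and muscle for 25.6%. Heart led for 9.96%, the library labelled spleen for 4.45% and liver for 1.5%. The median log2 value in gill minus the mean of the other 6 libraries was 1.38 for the list and 0.35 for all genes. For fin it was 1.19 and 0.46, and for kidney 0.6 and 0.63. Of the list, 9 rows, or 8.33%, were at least 2-fold above every other library in gill, near the 6.88% of all genes.

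**Figure D4:**
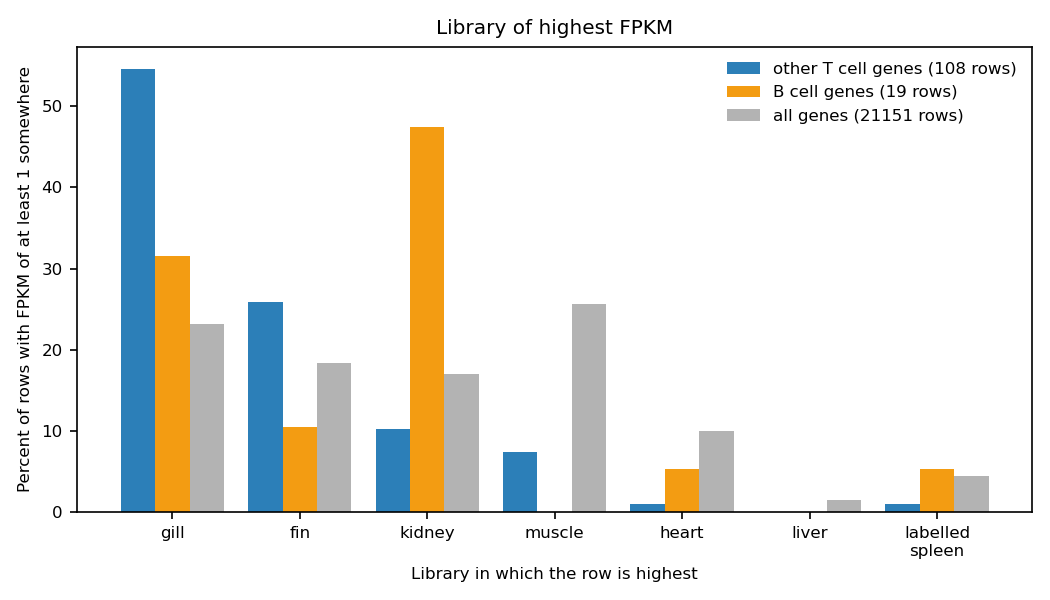
Percent of rows (vertical axis, from 0) whose highest FPKM lay in each library (horizontal axis, 1 sample each), for the other T cell genes (blue), the B cell genes (orange) and all genes that reached an FPKM of 1 (grey). Gill leads for 54.6% of the T cell rows and 23.2% of all genes, and kidney leads for 47.4% of the B cell rows.

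Among coreceptors and adaptors, gill led for most rows. CD5 (Pjo00509), an inhibitory coreceptor, was 6.41 in gill, 2.92 in fin and 2.24 in kidney, and its relative Cd6 (Pjo19176) was 3.12, 1.54 and 0.65. Of 28 rows of proximal signalling genes that reached 1, 18 were highest in gill, which led for 23.2% of all genes. SLA2 (Pjo23215), an adaptor that dampens receptor signalling, was 60.2 in gill, 13.6 in fin and 2.35 in kidney, and a second Sla2 row (Pjo11810) was 3.85, 1.41 and 0.9. ptprc (Pjo21859), the phosphatase CD45 of all white blood cells, was 54.0 in gill, 35.8 in kidney and 33.1 in fin. CD45 was thus relatively higher in kidney than CD3E was, with 35.8 against 4.57 there and 54.0 against 28.2 in gill.

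Downstream signalling genes were split more evenly, with 11 of 22 rows highest in gill and 6 in fin. Over all genes gill led for 23.2% and fin for 18.4%. Tnfaip3 (Pjo13176), an inhibitor of NF-kappa B, was 57.9 in gill and 32.7 in fin, and Stim1 (Pjo15607), the calcium store sensor, was 38.7 and 35.5, with 31.5 in kidney. Itpr1 (Pjo06854), a calcium release channel, was 8.85 in gill and 1.52 in fin. All 3 rows of costimulatory and checkpoint receptors were highest in gill. Tnfrsf9 (Pjo22856) was 48.9 in gill and 39.6 in heart, Btla (Pjo00603) was 34.7 in gill and 14.7 in fin, and Tnfrsf4 (Pjo12075), whose orthology name is TNFRSF9, was 29.6 and 8.45.

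Of 6 rows of cytokine receptors, 3 were highest in gill and 1 each in fin, kidney and muscle. Over all genes these libraries led for 23.2%, 18.4%, 17.0% and 25.6%, in that order. IL2RG (Pjo10840), the shared gamma chain, was 33.5 in gill, 31.2 in fin and 20.1 in kidney, and IL7R (Pjo21112), a survival receptor of T cells, was 14.4, 13.2 and 2.25. Chosen after its values were seen, IL12RB2 (Pjo06763) was 23.0 in muscle, 20.0 in kidney and 1.19 in gill. Il21r (Pjo03062), chosen likewise, was 14.1 in both kidney and muscle and 4.5 in gill. The part of egg RNA in the IL12RB2 and Il21r values was not tested. Of 21 rows of transcription factors, 13 were highest in gill. PRDM1, a factor of terminal differentiation in lymphocytes and of epithelia, had rows at 66.9 (Pjo19656) and 19.2 (Pjo16822) in gill and 10.6 and 3.8 in fin, and BCL6 (Pjo01329) was 37.1 and 36.8. Of 23 rows of effector and homing genes, 9 were highest in gill and 11 in fin. Ccr9 (Pjo01830), a homing receptor, was 395 in gill and 313 in fin. CXCR4 (Pjo06438), a receptor of many cell types, was 316 in gill and 35.8 in fin, and S1pr1 (Pjo06176), assigned to S1PR5, was 13.2 and 2.44. The other S1pr1 rows, added after their values were seen, were also high in heart. Pjo22004, assigned to S1PR1, was 89.2 in gill, 54.6 in heart and 6.42 in fin. Pjo03720, assigned to S1PR5, was 40.1, 29.9 and 7.85.

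Several core genes lacked a symbol and were found through the orthology column, a step added after the data were seen. Of the listed T cell genes, 33 had no row by name. Searching for these, and for further CD2 rows, gave 20 rows, of which 17 reached 1 and 15 of those were highest in gill. Gill led for 23.2% of all genes that reached 1. Some of the rows carried the name of another gene, namely Cd40 (assigned to CD27), HSPG2 (LAG3), TNFRSF1B (TNFRSF18), JAK2 (JAK3) and Stat5b (STAT6). Which name is right was not tested. The row assigned to CD3D (Pjo15787), the delta chain of CD3, was 18.2 in gill, 13.7 in fin and 4.58 in kidney. LAT (Pjo03564), the scaffold that ZAP70 phosphorylates, was 17.2 in gill, 7.47 in fin and 3.59 in kidney. CD3D and LAT thus stepped down from gill to fin to kidney as CD3E did.

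Of the coreceptors of helper and cytotoxic T cells, the CD8 rows were lower than the CD4 row in gill and fin. The CD4 row (Pjo16549) was 6.62 in gill, 3.83 in fin and 1.59 in kidney. The CD8B row (Pjo21328) was 2.86, 1.23 and 0.99, and the CD8A rows were 1.33 (Pjo21326) and 0.86 (Pjo21327) in gill and 1.18 and 1.37 in fin. The row Pjo01096, assigned to the adhesion receptor CD2, was 25.7 in gill and 9.27 in fin. The row named CD2 (Pjo01097), assigned to HEPACAM, was 0.53 in gill and 8.95 in fin. PDCD1 (Pjo21736), the checkpoint receptor PD-1, was 9.57 in gill, 1.5 in fin and 0.26 in kidney. Of 177 rows that the pathway column places in T cell receptor signalling, 7 of the 15 rows among them, 141 reached 1. Of these, 59 were highest in gill, 34 in fin, 24 in kidney and 17 in muscle. These were 41.8%, 24.1%, 17.0% and 12.1%, against 23.2%, 18.4%, 17.0% and 25.6% of all genes that reached 1. The kidney share thus equalled that of all genes.

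Relatives of the same gene families varied, some with a like profile and some with another. In the GATA family, GATA2 (Pjo11400) was 71.2 in gill, 3.5 in kidney and 1.94 in fin, close to gata3 in shape, while another GATA2 row (Pjo11797) was 25.3 in kidney, 12.6 in heart and 6.05 in gill. gata4 (Pjo20571), a heart and liver factor, was 20.6 in heart. Among T-box genes, TBR1 (Pjo10389) was 29.0 in muscle, 27.6 in kidney and 0.03 in gill, the same libraries as eomes Pjo18732. No row was named tbx21.

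Among kinases, the ZAP70 relative SYK (Pjo11297), used in B and myeloid cells, was 24.8 in kidney, 14.1 in gill and 7.48 in fin. It led in kidney, where ZAP70 was 3.04. The Src family kinase fynb (Pjo20015) was 7.5 in gill, 4.14 in kidney and 4.89 in fin. TXK (Pjo22490), a kinase of T cells, was 7.27 in gill, 3.62 in fin and 3.09 in kidney. TEC (Pjo22491) was 12.4 in kidney and 10.8 in gill, and BTK (Pjo14377), the B cell kinase, was 8.5 in gill, 7.48 in fin and 7.24 in kidney. The Tcf7 relative tcf7l1b (Pjo08736) was 28.3 in muscle, its highest library. Lef1 (Pjo00340) was 5.06 in kidney and 4.82 in gill, and Tcf7l2 (Pjo12499) was 9.89 in fin and 9.28 in gill.

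B cell rows were more often highest in kidney than the other T cell rows were. Of 25 rows of the B cell list, most were copies named CD22, some with another orthology name or none. In all, 19 rows reached 1. Of these, 9 or 47.4% were highest in kidney, against 10.2% of the other T cell rows and 17.0% of all genes. A further 6 or 31.6% were highest in gill, against 23.2% of all genes. Among the 9 rows led by kidney, pax5 (Pjo00810) was 11.9 in kidney, 11.2 in muscle and 0.65 in gill. BLNK (Pjo09492) was 5.84, 5.11 and 4.5. The other BLNK row (Pjo13972) was 9.51, 0.41 and 5.42, and Cd79a was 0.47 in muscle. The part of egg RNA in the kidney values was not tested. The median log2 difference of gill minus kidney was -0.28 over those B cell rows and 0.94 over the other T cell rows. Cd79a (Pjo16376), a chain of the B cell receptor, was 9.09 in kidney, 5.02 in gill and 3.37 in fin, and CD79B (Pjo12985) was 3.58, 2.13 and 0.9. Unlike Cd79a and CD79B, CD3E was higher in gill, at 4.57 in kidney and 28.2 in gill. Both EBF1 rows of the B cell list were also higher in gill. They were 4.24 (Pjo14330) and 7.91 (Pjo20746) there, against 0.55 and 1.64 in kidney.

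The genes most like CD3E over the 7 libraries were sought by Pearson correlation of log2(FPKM + 1). The candidates were 13513 named genes that reached an FPKM of 5, with the 15 T cell receptor signalling rows left out. The 10 highest, between 0.995 and 0.999, were GCNT7, HLA-DPA1, B3GALT2, CTSS, Vasp, TTLL10, CARD8, Olfm4, TRA and NECTIN3. TRA (Pjo01873), named for a T cell receptor alpha chain, was 86.9 in gill, 42.9 in fin, 13.8 in kidney, 3.27 in heart, 1.71 in the library labelled spleen, 1.2 in liver and 0.85 in muscle. The 7 points are single libraries that differ in composition, and the values are a description only. LCK Pjo17397 shared GCNT7, B3GALT2, Olfm4 and NECTIN3 with CD3E among its 5 nearest genes, and its other one was Nfatc2.

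The nearest genes of the remaining rows differed. For ZAP70 they were Olfm4, ivns1abpa, NECTIN3, B3GALT2 and SP100, and for Cd247 Pjo01160 they were phf2, PTK2B, SP100, ITPRID2 and Hpgd. Those of LCK Pjo19801 were CCL2, TNFRSF1B, SLC25A15, XCR1 and SSBP2. gata3 was nearest to Ly6b, PLCB4, Hdhd5, MYH11 and KIAA1614, of which Ly6b (Pjo21547) was 97.4 in gill and 3.26 in fin. Tcf7 was nearest to Sfswap, Tnfrsf14, babam2, PDPK1 and MLKL. CD28 was nearest to ALKBH3, PDF, slc2a10, mesd and Ino80c, and eomes Pjo18732 to fam110b, spdl1, KIF20A, CCDC171 and mepce, which were all highest in muscle or kidney. Among the 11 rows, the correlation of CD3E, rounded, was 1.0 with ZAP70 and with LCK Pjo17397, and 0.99 with Cd247 Pjo01160. It was 0.94 with Tcf7 and with LCK Pjo19801, 0.9 with Cd247 Pjo10208 and 0.86 with gata3. The lowest values were 0.19 with CD28 and 0.01 with eomes Pjo18732.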

How the data were processed

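The authors deposited 1 table of FPKM, printed to 2 decimals, for 26107 genes in 7 libraries, 1 per tissue. Per the labels' protocols, TRIzol was used for extraction, and a Vazyme VAHTS kit for MGI sequencers for the libraries. HISAT2 2.2.1 and RSEM 1.3.3 are named in the submitters' processing notes. No genome build or annotation is given in the sources used here, and sequences and positions were not used.

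Rows were matched by name in lower case, with an optional a or b and a copy number. FPKM were used as deposited. A gene was counted at an FPKM of at least 1 in some library, and a 2-fold call needed 1 in the higher library and 2-fold on FPKM + 1. Correlations used log2(FPKM + 1). With 1 sample per tissue no test was run. The code of the fold rule was tested on simulated data with known folds, which says nothing of replicate error. The members and lists were chosen with earlier results of these data known. Values of 1 member are not reported here, though the counts and medians include it. Named were the other members, the 2 rows of highest gill FPKM per T cell sub-list with those past the 2-fold rule in gill, up to 4, and the nearest genes by correlation, 10 for CD3E and 5 for other rows that reached an FPKM of 5. Relatives and markers were named as examples after their values were seen.

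Alternatives were median-of-ratios scaling over 17448 genes, a common sum, leaving out libraries, FPKM limits of 5 or none, a 5-fold limit, a pseudocount of 0.1, another reference and 1 row per gene. Leaving out kidney, or liver with the library labelled spleen, was chosen after seeing the data. Python 3.11.15, numpy 2.4.6, pandas 2.3.3 and matplotlib 3.10.9 were used.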

Additional observations from a re-analysis of the deposited data

How the results depend on the processing

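With 1 sample per tissue, no paired analysis was possible because each group holds a single library, and unknown read depth limits every value below 1. The count of 8 rows highest in gill ran from 7 to 10 over all alternatives run. Without fin, 7 rows in place of 2 were at least 2-fold above every other library in gill. A 5-fold limit gave 1 row against every other library, 1 against fin and 3 against kidney. For kidney above the library labelled spleen, the count of 8 was 3 after median-of-ratios scaling and 2 with an FPKM limit of 5 or a 5-fold limit. With 1 row per gene, 39 of 68 T cell list genes were highest in gill. The list's median in gill, 1.38, was 1.01 after median-of-ratios scaling, 1.59 with a common sum, 1.27 without the library labelled spleen, 1.45 without muscle, 1.75 without fin, 1.63 without kidney and 1.06 without liver and the library labelled spleen. It was 1.88 with an FPKM limit of 5, 1.31 with none, 2.46 with a pseudocount of 0.1, 1.65 with 1 row per gene, and 0.12 when gill was set against the highest other library. The cause of these shifts was not tested. Single rows were followed for gill against fin, gill against kidney, and kidney against the library labelled spleen. In these comparisons, no alternative run turned the direction of a 2-fold difference. Smaller differences did turn, as for Tcf7 in kidney minus the library labelled spleen. Its log2 difference was 0.57, and -0.68 after median-of-ratios scaling. Other pairs of libraries were not followed, and some rows turned between kidney and liver. Cd247 Pjo01160 was 3.1 in kidney and 0.57 in liver as deposited, and 1.5 and 2.12 after median-of-ratios scaling. After that scaling, kidney and liver were 0.92 and 2.79 for Tcf7, and 0.43 and 0.48 for LCK Pjo19801.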

Other observations

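Some effector genes and a homing ligand were higher in fin than in gill; they were picked after their values were seen. The Gzmb rows, granule proteases of killer cells, were 30.7 in fin and 5.64 in gill (Pjo10159), 10.1 and 6.74 (Pjo21931), and 5.55 and 0.69 (Pjo21932). Perforin rows (Prf1) were divided, at 3.42 in fin and 0.04 in gill (Pjo08981), 2.57 and 2.43 (Pjo08979), and 0.15 and 1.32 (Pjo19285). The row ifng1 (Pjo04459), which encodes interferon gamma, was 0.95 and 0.14. CCL25 (Pjo02304), a ligand of CCR9 in mammals, was 166 in fin, 16.7 in gill and at most 0.12 in the other 5 libraries, whereas its receptor Ccr9 (Pjo01830) was 313 and 395. With 1 library per tissue, none of these differences has a replicate check.

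FOXP3, the factor of regulatory T cells, was found in 2 rows, at 9.01 in gill, 6.48 in fin and 3.55 in kidney (Pjo09054), and at 4.7, 1.85 and 1.92. RUNX3 (Pjo13900), a factor of cytotoxic T cells, was 19.2 in gill, 9.23 in fin and 1.29 in kidney. BCL11B rows differed: Pjo19967 was 8.11 in fin and 2.8 in gill, while Bcl11b Pjo21177, which has no orthology name, was 27.7 in muscle and 25.4 in kidney.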
